A study of Mus musculus with 12 samples.

Results

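The BCL2 family survival and death genes were followed as transcripts in CD4+ T cells before and after their differentiation into regulatory T (Treg) cells. The 10 genes were fixed by name: *Bcl2*, *Bcl2l1* and *Mcl1*, which oppose mitochondrial cell death, *Bax* and *Bak1*, which carry it out, and *Bcl2l11*, *Bbc3*, *Pmaip1*, *Bad* and *Bid*, which trigger it. Every probe that the array's annotation assigns to exactly 1 of these genes was taken. *Bax* was assigned no probe in the annotation used and was not analysed here, which left 9 of 10 genes, with 28 probes. All 9 were among the 15663 genes tested, and all 9 exceeded background on at least 1 array.

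The study asked how harmine, a plant alkaloid that inhibits the kinase DYRK1A, changes the Treg cells that form in its presence. All cells came from mice labelled Foxp3GFP, in which GFP reports the Treg transcription factor Foxp3, and the study names a *Foxp3* IRES-GFP line for its sorts of Treg cells. Naive CD4+CD62L+ T cells were isolated with a cell sorter (FACS) or with magnetic beads (MACS) and either profiled directly (naive) or cultured on antibodies to CD3 and CD28. The cultures held high TGF-β (Treg hi) or low TGF-β plus harmine (Treg HAR), and GFP+ cells were sorted from them by FACS on day 4. By the paper's methods, Treg cultures were also fed with medium that held interleukin 2. The 12 Illumina Mouse WG-6 arrays formed 6 groups of 2, naive, Treg hi and Treg HAR each from both isolations, so that each treatment had 4 arrays. Whether paired arrays of one group stem from different mice or wells is not stated in the labels, so the p-values below measure only the spread between these arrays. No array held cells from low TGF-β without harmine, so harmine and the dose of TGF-β cannot be told apart. Culture, added interleukin 2, activation and Treg differentiation likewise cannot be told apart in a comparison with naive cells.

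Members of the BCL2 family meet at the outer membrane of the mitochondrion. BAX and BAK form the pores that release cytochrome c and start the caspase cascade, the survival proteins BCL2, BCL-XL and MCL1 hold them and their activators in check, and the BH3-only proteins relay stress or loss of cytokine by binding the survival proteins or by activating BAX and BAK directly. In T cells, BCL2 and MCL1 sustain resting lymphocytes in the presence of interleukin 7, BCL-XL is induced by CD28 costimulation, and BIM removes activated cells after a response.

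Against naive cells, 7 of the 9 measured members differed in Treg HAR cells and 6 of 9 in Treg hi cells, whereas none of the 9 passed the test between the 2 kinds of Treg. In both kinds of Treg, *Bcl2*, *Bcl2l1*, *Bbc3* and *Bad* were higher than in naive cells and *Mcl1* and *Bid* lower. *Bcl2l11* was lower in Treg HAR cells by the test and in Treg hi cells had a difference of -0.53 ± 0.21 on the log2 scale, which did not pass (limma, adjusted p = 0.0969). These differences lay between -1.08 and 1.34 on the log2 scale, where 1 is a doubling of the normalized intensity. That intensity includes an offset of 50 added in the background correction, which narrows the differences of dim probes. With an offset of 16, the *Bcl2l1* difference between Treg HAR and naive cells was 1.09 in place of 0.58. In each comparison with naive cells the arrays of both kinds did not overlap for 6 of 9 members, against 26.7% of all genes in Treg HAR and 26.7% in Treg hi. Both comparisons share the 4 naive arrays, so the second is no repeat of the first.

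Calls were made by limma at an adjusted p under 0.05 over all 15663 genes. In Treg HAR against naive cells 27.5% of all genes were called, 13.8% higher and 13.7% lower, against 77.8% of the members. In Treg hi against naive cells 26.0% were called, 12.8% higher and 13.2% lower, against 66.7% of the members. The members were chosen with earlier results of these data known, so their larger shares are a description only. All 9 measured members were above background on at least 1 array, but only 10148 of the 15663 genes were. With genes limited to probes above background on at least 2 arrays, 4364 of 9172 were called in Treg HAR and 4134 of 9172 in Treg hi cells. Shares of all genes elsewhere in the text are of the 15663 tested, dim ones included. The median size of the members' log2 difference was 0.6 and 0.614 in the same order, and that of all genes was 0.115 and 0.108. The medians of all genes also include dim genes, whose differences the offset narrows. No median was taken over genes above background alone. With signs kept, the members' median was 0.04 and 0.00, since genes that were higher and genes that were lower were close in number. Between Treg HAR and Treg hi cells 0.466% of all genes were called (73 genes, 0.172% higher and 0.294% lower). Before adjustment 1688 genes had a p under 0.05, and *Bcl2* and *Bid* were the 2 members among them. The members' median size of difference in that comparison was 0.0729, and that of all genes was 0.0651.

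After quantile normalization 29.9 to 30.2% of probes were above background on each array. That normalization gives all arrays the same distribution, so these shares cannot show whether the arrays were alike in brightness. Background was a ceiling set on each array from the spread of its dimmest probes, at a log2 intensity of 6.22 to 6.23. The T cell genes tested (*Cd3d*, *Cd3e*, *Cd4* and others, 7 in all) were above background in 6 to 7 cases on every array. Of 7 Treg genes 4 were higher in both kinds of Treg (*Il2ra*, *Ctla4*, *Tnfrsf18*, *Nrp1*). *Foxp3* itself was not: its brightest probe read 7.22 ± 0.15 in naive, 6.87 ± 0.25 in Treg hi and 6.98 ± 0.30 in Treg HAR cells (SD, n = 4), and none of its 4 probes passed the test in any of the 3 comparisons. A dimmer probe, ILMN_1225330, was above background on none of the naive, 3 of the Treg hi and 2 of the Treg HAR arrays, with log2 differences from naive cells of 0.19 in Treg HAR (adjusted p = 0.0853) and 0.19 in Treg hi cells (adjusted p = 0.0953). All 7 cell cycle genes tested were higher in both kinds of Treg, and of 5 naive T cell genes 3 were lower in both.

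The naive MACS arrays stood apart from the naive FACS arrays. Between them 218 genes were called (1.39%), and 100, 103 or 570 without naive FACS 1, naive FACS 2 or naive MACS 1. Of all genes 1.35% were higher in the MACS cells and 0.0383% lower, and none of the members was called. Among the 212 that were higher were 8 of 9 neutrophil genes, 3 of 7 monocyte, 3 of 6 B cell and 2 of 5 erythroid and platelet genes. The mean log2 intensity of the 9 neutrophil genes was 7.06 to 7.75 on the naive FACS arrays, 9.14 to 10.1 on the naive MACS arrays and 5.98 to 6.06 on the 8 Treg arrays. All 9 were lower in both kinds of Treg than in naive cells, and 9 (Treg HAR) and 8 (Treg hi) without the naive MACS arrays. Every comparison with naive cells given here is therefore also one between samples that differ in the signal of other blood cells. In a bulk measurement fewer cells of a type and less RNA per cell cannot be told apart. The part of these cells in the members' differences was not tested, but each call of a member that is lost without the naive MACS arrays is given below with and without them.

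**Figure D1:**
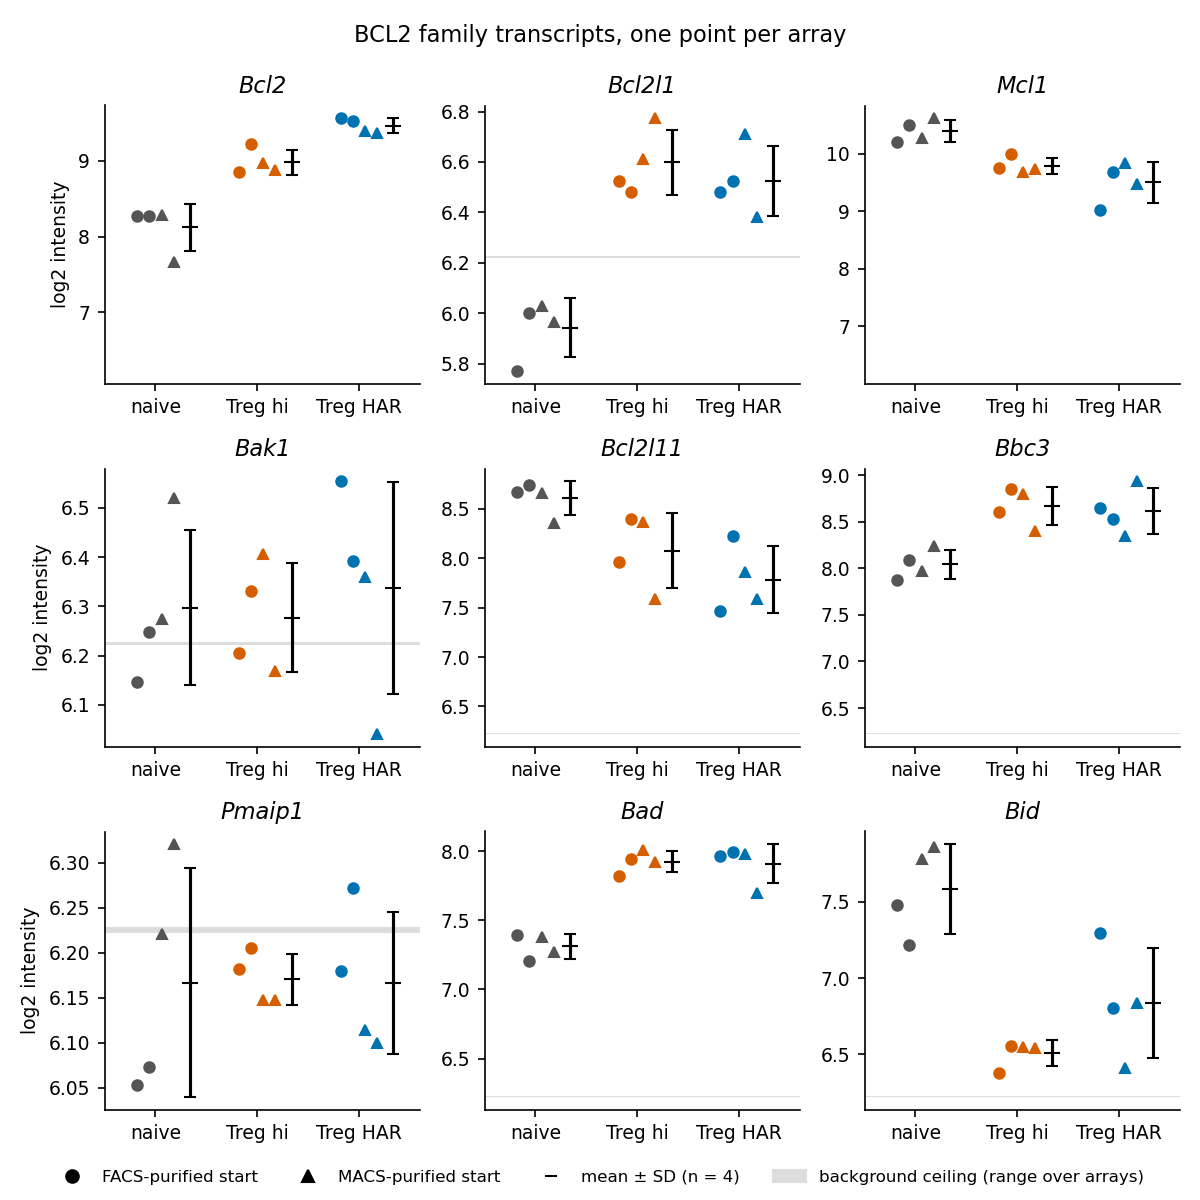
Normalized log2 intensity of the 9 measured genes on each of the 12 arrays (y axis, scaled to each gene; circles, FACS isolation; triangles, MACS isolation), with mean ± SD of 4 arrays and a grey line at the background ceiling. The naive arrays lie below both kinds of Treg for Bcl2, Bcl2l1, Bbc3 and Bad and above both for Mcl1, while Bcl2 is the one gene whose Treg HAR and Treg hi arrays do not overlap.

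The sequences upstream of the 4 members with the largest differences between Treg HAR and naive cells are shown here: *Bcl2*, which was higher, and *Mcl1*, *Bcl2l11* and *Bid*, which were lower. Each run is the 250 bases before the RefSeq transcript start (GRCm38.p6), 5′ to 3′ on the gene's strand, and capitals mark the GC box (GGGCGG or its reverse complement CCGCCC) and, in *Bcl2l11* alone of these, the forkhead motif (TGTTTAC or GTAAACA). The windows are chr1:106714291-106714540 (minus strand) for *Bcl2*, chr3:95658471-95658720 (plus) for *Mcl1*, chr2:128125788-128126037 (plus, the first of 2 windows) for *Bcl2l11* and chr6:120916825-120917074 (minus) for *Bid*.
Bcl2: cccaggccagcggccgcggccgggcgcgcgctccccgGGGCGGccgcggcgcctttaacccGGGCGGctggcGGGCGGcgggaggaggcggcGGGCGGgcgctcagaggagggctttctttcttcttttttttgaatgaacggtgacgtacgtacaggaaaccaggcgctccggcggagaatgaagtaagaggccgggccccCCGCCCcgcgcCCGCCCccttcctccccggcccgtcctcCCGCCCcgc
Mcl1: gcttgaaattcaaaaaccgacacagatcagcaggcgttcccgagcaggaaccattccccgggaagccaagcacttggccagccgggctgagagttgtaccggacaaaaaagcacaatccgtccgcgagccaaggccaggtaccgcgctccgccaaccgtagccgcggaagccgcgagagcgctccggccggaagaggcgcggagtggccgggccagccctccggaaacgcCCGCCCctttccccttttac
Bcl2l11: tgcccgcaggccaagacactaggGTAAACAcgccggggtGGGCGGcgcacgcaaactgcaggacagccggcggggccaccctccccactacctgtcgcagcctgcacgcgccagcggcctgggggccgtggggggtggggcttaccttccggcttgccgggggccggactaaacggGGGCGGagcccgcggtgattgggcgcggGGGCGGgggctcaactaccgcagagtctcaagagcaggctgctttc
Bid: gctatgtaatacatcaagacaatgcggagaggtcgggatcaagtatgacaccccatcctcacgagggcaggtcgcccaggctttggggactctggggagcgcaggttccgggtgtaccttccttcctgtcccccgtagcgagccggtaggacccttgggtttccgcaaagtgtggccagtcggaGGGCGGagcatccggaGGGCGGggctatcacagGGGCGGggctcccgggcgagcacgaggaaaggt
The *Bcl2* window was 74.8% G and C and held 7 GC boxes. *Bcl2l11* and *Bid* held 3 each and *Mcl1* 1, in windows of 72%, 63.6% and 64.4% G and C. No capitals of one motif overlap those of the other. Across all 15 windows of the 9 members whose promoters were searched, *Bax* included and *Pmaip1* not, 10 windows of 7 genes held a GC box, against 32.7% of 32851 RefSeq windows of the same length. The median G and C content of all windows was 52.4%. The forkhead motif was in 2 windows (*Bcl2l11* and *Bbc3*; 3.17% of all windows) and the E-box CACGTG in 2 (*Bax* and *Bbc3*; 6.02%). CCAAT was in 4 windows (33.8% of all). No window held the STAT motif TTCNNNGAA (7.02%), the cyclic AMP response element TGACGTCA (1.55%) or TATAAA (12.4%). Both strands were searched for each motif, and a match is a description of these letters only.

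Of the survival genes, *Bcl2*, the founding member of the family, was higher in both kinds of Treg. Its brightest probe read 8.27 and 8.27 on the naive FACS arrays and 8.28 and 7.66 on the naive MACS arrays. In Treg hi cells it read 8.85 and 9.22 (FACS) and 8.97 and 8.88 (MACS), and in Treg HAR cells 9.57 and 9.53 (FACS) and 9.39 and 9.37 (MACS). At this probe the 3 treatments formed 3 bands that did not overlap, naive lowest and Treg HAR highest. *Bcl2* was 2.54-fold higher in Treg HAR than in naive cells (log2 difference 1.34 ± 0.13, limma, adjusted p = 3.53e-05) and 1.81-fold higher in Treg hi than in naive cells (0.86 ± 0.13, adjusted p = 0.000714). Treg HAR exceeded Treg hi by 0.48 ± 0.13 on the log2 scale (95% interval 0.196 to 0.771), which did not pass the threshold over all genes (adjusted p = 0.159). *Bcl2* was the single member of 9 whose Treg HAR and Treg hi arrays did not overlap, against 6.56% of all genes. The difference was 0.51 within the FACS arrays (adjusted p = 0.162) and 0.45 within the MACS arrays (adjusted p = 0.999). It lay between 0.32 and 0.64 in 29 alternative settings, and its adjusted p in them ran from 0.0572 to 1.

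The array carries 9 *Bcl2* probes, and 4 of them were above background on all 12 arrays. For the 3 brightest, Treg HAR and Treg hi arrays did not overlap. The share of all probes without overlap was not counted, and at 1 probe per gene it was 6.56% of all genes. These probes read the same gene on the same arrays, so they are not separate support. The probe ILMN_2682162, the one annotated to the transcript of the shorter isoform, read 8.08 to 8.74 in Treg hi and 8.79 to 9.38 in Treg HAR cells. The probe ILMN_2706514 read 8.22 to 8.497 and 8.62 to 9.17 in the same order. Their differences were 0.71 ± 0.17 (adjusted p = 0.16 over 25829 probes) and 0.50 ± 0.18 (adjusted p = 0.372). The fourth probe, ILMN_1249021, overlapped between the kinds of Treg, at 7.32 to 8.40 in Treg hi and 7.57 to 8.68 in Treg HAR cells, with a difference of 0.18 ± 0.22 (adjusted p = 0.933). Against naive cells all 4 were higher in Treg HAR (0.83 to 1.34), each past the test. In Treg hi cells ILMN_1249366 and ILMN_2706514 were higher (0.86 and 0.76). There ILMN_2682162 (0.32, adjusted p = 0.262) and ILMN_1249021 (0.64, adjusted p = 0.0708) did not pass. The other 5 probes were dimmer: ILMN_1215796 was above background on 10 arrays, ILMN_2597567 on 4 and the rest on none, and no difference of theirs passed.

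*Bcl2l1* encodes the survival protein BCL-XL, and its brightest probe was not above background on any naive array. It read 5.77, 6.002, 6.03 and 5.96 there, 6.53, 6.48, 6.61 and 6.77 in Treg hi and 6.48, 6.52, 6.71 and 6.38 in Treg HAR cells, FACS arrays first. All 8 Treg arrays were above the ceiling, and the kinds of Treg overlapped. Since this probe gives naive cells only an upper bound, *Bcl2l1* was at least 1.23-fold higher in Treg HAR (log2 difference 0.58 ± 0.09, limma, adjusted p = 0.000664) and at least 1.3-fold higher in Treg hi cells (0.66 ± 0.09, adjusted p = 0.00034). These bounds set the mean of the 4 Treg arrays against the ceiling. Treg HAR minus Treg hi was -0.07 ± 0.09, with an interval from -0.269 to 0.123 (adjusted p = 0.907). Within the MACS arrays the Treg HAR call against naive cells was lost at nearly the same value (0.55, adjusted p = 0.0512). Of its other 3 probes, ILMN_2742557, above background on 1 naive array (0.36 and 0.37 in Treg HAR and Treg hi against naive), and ILMN_2698430 (0.23 and 0.39) also passed in both comparisons, and ILMN_1255430 was below background on all arrays.

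*Mcl1*, a short-lived survival protein needed by resting and activated lymphocytes alike, went the other way. Its single probe read 10.2, 10.5, 10.28 and 10.62 in naive cells, 9.75, 9.997, 9.67 and 9.74 in Treg hi and 9.01, 9.68, 9.84 and 9.47 in Treg HAR cells. Every naive array was above every Treg array, and Treg HAR spread widest, with the first FACS array lowest. *Mcl1* was 1.87-fold lower in Treg HAR (log2 difference -0.90 ± 0.16, limma, adjusted p = 0.00179) and 1.53-fold lower in Treg hi cells (-0.61 ± 0.16, adjusted p = 0.0169). The second call was lost without any 1 of 3 arrays, at adjusted p = 0.0698 without naive FACS 2, 0.0597 without naive MACS 2 and 0.0692 without Treg hi FACS 1. It was also lost without both naive MACS arrays (-0.56, adjusted p = 0.0725), on a scaling to a common median (-0.43, adjusted p = 0.121), within the FACS arrays (-0.48, adjusted p = 0.194) and within the arrays without *Eif2s3y* signal described below (-0.53, adjusted p = 0.148). Treg HAR minus Treg hi was -0.29 ± 0.16 (interval -0.643 to 0.0646, adjusted p = 0.604), and it was -0.53 within the FACS and -0.05 within the MACS arrays.

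Of the 2 executioners, only *Bak1* could be read, from 1 probe near background. It was above the ceiling on 3 of 4 naive, 2 of 4 Treg hi and 3 of 4 Treg HAR arrays. The means were 6.30 ± 0.16 in naive, 6.28 ± 0.11 in Treg hi and 6.34 ± 0.22 in Treg HAR cells (SD, n = 4). All 3 ranges overlapped, and none of the comparisons passed (limma, adjusted p = 0.84 to 0.945). The intervals bounded the difference from naive cells at -0.18 to 0.259 in Treg HAR and at -0.24 to 0.199 in Treg hi cells. They bounded that between the kinds of Treg at -0.16 to 0.279. These bounds hold on the scale with the offset, which narrows differences near background.

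**Figure D2:**
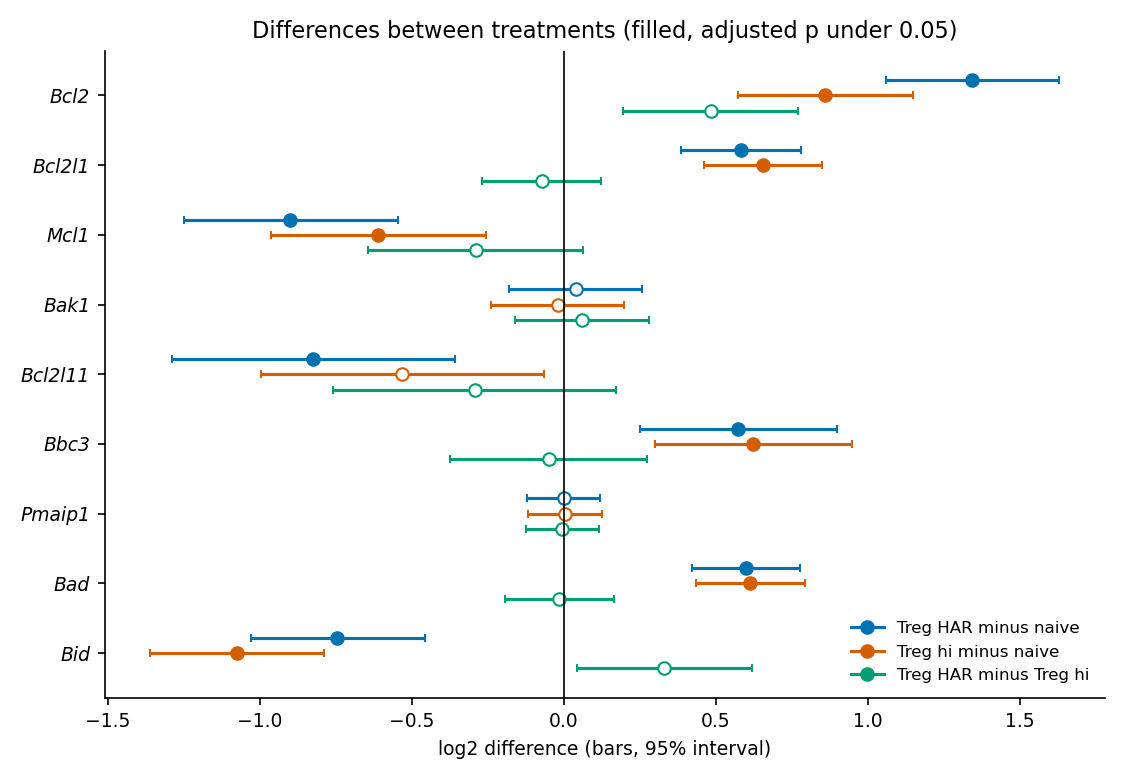
Log2 differences (x axis) with 95% intervals from the limma fit for the 9 measured genes, for Treg HAR minus naive, Treg hi minus naive and Treg HAR minus Treg hi; filled points have an adjusted p under 0.05 over all 15663 genes. All Treg HAR minus Treg hi points are open, and the intervals of Bcl2 (0.196 to 0.771) and Bid (0.0428 to 0.618) are the 2 among them that leave out 0.

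The BH3-only triggers split in direction. *Bcl2l11* encodes BIM, the trigger that acts when cytokine is withdrawn and after T cell responses. Its brightest probe read 8.67, 8.74, 8.66 and 8.35 in naive, 7.96, 8.39, 8.36 and 7.59 in Treg hi and 7.47, 8.22, 7.86 and 7.58 in Treg HAR cells. The Treg HAR arrays all lay below the naive arrays, while 2 Treg hi arrays reached the lowest naive array. *Bcl2l11* was 1.77-fold lower in Treg HAR than in naive cells (log2 difference -0.82 ± 0.21, limma, adjusted p = 0.014). Within the MACS arrays the difference had nearly the same size but did not pass (-0.79, adjusted p = 0.123). In Treg hi cells the difference of -0.53 passed without the first Treg hi MACS array (-0.72, adjusted p = 0.0248). Treg HAR minus Treg hi was -0.29 ± 0.21 (interval -0.759 to 0.173, adjusted p = 0.745). The other 3 probes were dim, and none of their differences passed, the largest being -0.28 for ILMN_2590638 (Treg HAR minus naive, adjusted p = 0.11).

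*Bbc3* encodes PUMA, a p53 target that binds all the survival proteins. It read 7.87, 8.09, 7.97 and 8.24 in naive, 8.61, 8.85, 8.80 and 8.40 in Treg hi and 8.65, 8.53, 8.35 and 8.94 in Treg HAR cells. Every Treg array was above every naive array, and the kinds of Treg overlapped. The gain over naive cells was 1.49-fold in Treg HAR (0.57 ± 0.14, limma, adjusted p = 0.0138) and 1.54-fold in Treg hi cells (0.62 ± 0.14, adjusted p = 0.00956). The first was lost without naive FACS 1 (0.52, adjusted p = 0.0568), and within the MACS arrays neither passed (0.54, adjusted p = 0.226, and 0.50, adjusted p = 0.283). Its 2 dimmer probes did not pass, and ILMN_2690620 had a value of the opposite sign in Treg HAR against naive cells (-0.13, adjusted p = 0.304). Treg HAR minus Treg hi was -0.05 ± 0.14 (interval -0.374 to 0.274).

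*Bad*, a trigger that is switched off by phosphorylation under growth factor and cytokine signals, was higher in both kinds of Treg. It read 7.39, 7.20, 7.38 and 7.27 in naive, 7.82, 7.94, 8.01 and 7.92 in Treg hi and 7.97, 7.998, 7.98 and 7.70 in Treg HAR cells. Naive and Treg arrays were fully apart. *Bad* was 1.52-fold higher in Treg HAR (0.60 ± 0.08, limma, adjusted p = 0.000315) and 1.53-fold higher in Treg hi cells (0.61 ± 0.08, adjusted p = 0.000292), and both calls held in all 29 alternative settings. Treg HAR minus Treg hi was -0.01 ± 0.08 (interval -0.193 to 0.165, adjusted p = 0.993).

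*Pmaip1* encodes NOXA, a p53 target that binds MCL1. Its brightest probe was above background on 2 of 12 arrays, at 6.32 on the second naive MACS array and 6.27 on the second Treg HAR FACS array. The means were 6.17 in all 3 treatments, and no fold is given for a gene at background. The other 2 probes were below background on every array.

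*Bid*, which links death receptors to mitochondria once caspase-8 has cut it, was the member with the largest drop in Treg hi cells. It read 7.48 and 7.21 on the naive FACS and 7.78 and 7.86 on the naive MACS arrays. It read 6.38, 6.55, 6.55 and 6.54 in Treg hi cells, and in Treg HAR cells 7.29 and 6.81 (FACS) and 6.41 and 6.84 (MACS). The Treg hi arrays were tight and below all naive arrays, whereas 1 Treg HAR array reached into the naive range. *Bid* was 2.11-fold lower in Treg hi (log2 difference -1.08 ± 0.13, limma, adjusted p = 0.000169) and 1.68-fold lower in Treg HAR than in naive cells (-0.75 ± 0.13, adjusted p = 0.0016). The Treg HAR value was -0.30 within the FACS arrays (adjusted p = 0.319), -1.19 within the MACS arrays (adjusted p = 0.00546) and -0.51 without both naive MACS arrays (adjusted p = 0.0553). The gap between the isolations, -0.90 ± 0.26 (interval -1.47 to -0.321), did not pass the test over all genes (adjusted p = 0.334). The Treg hi value was -0.88 and -1.27 within FACS and MACS arrays and -0.84 without the naive MACS arrays, past the test in each. Treg HAR exceeded Treg hi by 0.33 ± 0.13 (interval 0.0428 to 0.618), which did not pass (adjusted p = 0.369) and was 0.58 within FACS and 0.08 within MACS arrays. The second *Bid* probe was below background on all arrays.

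**Figure D3:**
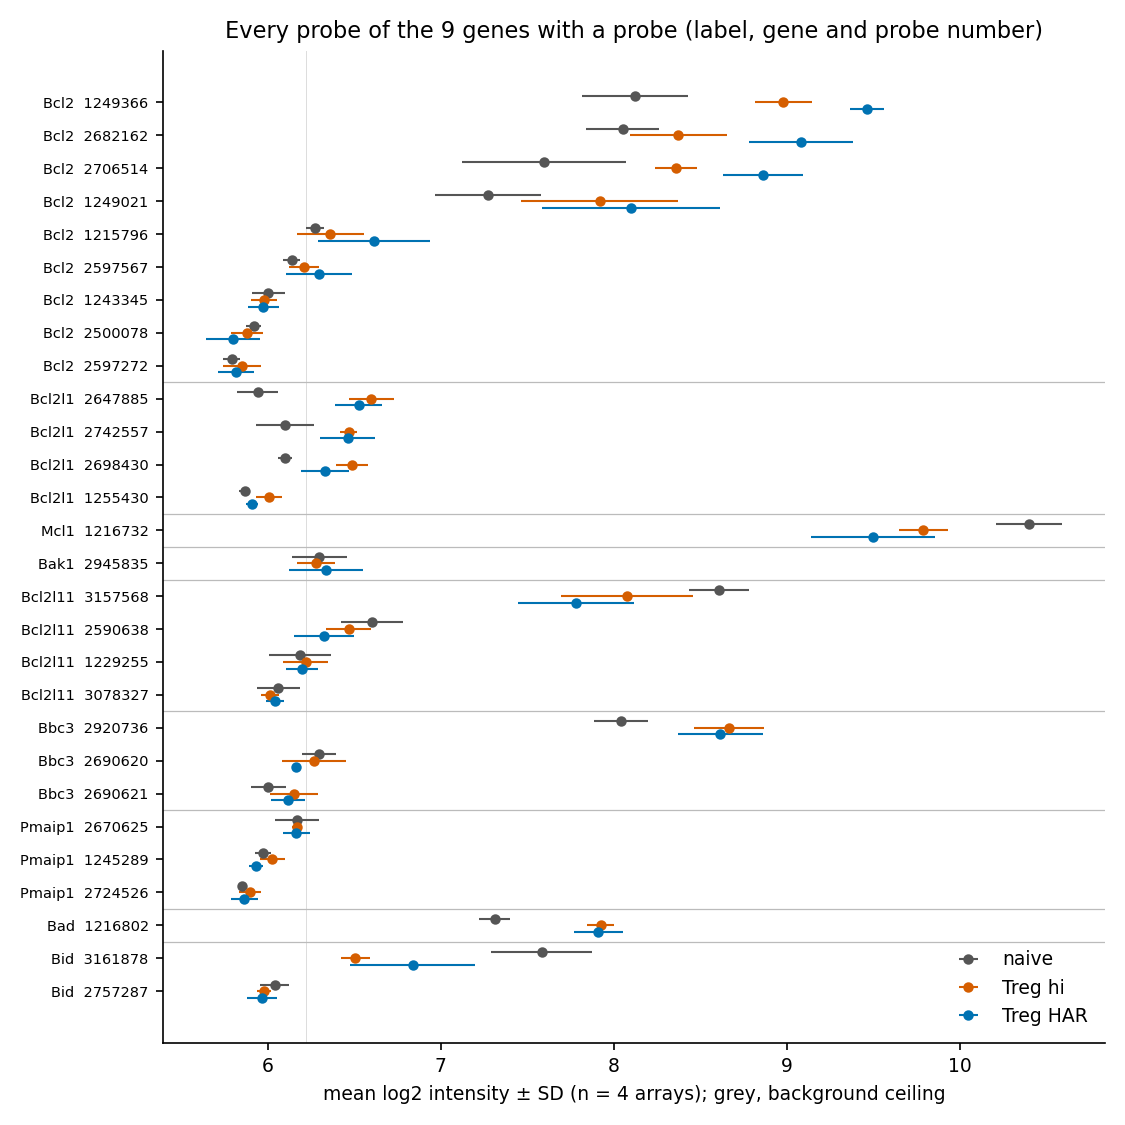
Mean log2 intensity ± SD of 4 arrays (x axis) for all 28 probes of the 9 genes, labelled by gene and probe number, in naive, Treg hi and Treg HAR cells; the grey line is the background ceiling. Only Bcl2 has several probes far above the ceiling, and 4 of its 9 are above background on all 12 arrays.

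Tested probe by probe, 12 of 25 kept member probes passed in Treg HAR against naive cells, where 23.2% of all 25829 kept probes did, and 9 of 25 passed in Treg hi against naive cells, where 21.8% did. None of the 25 passed between the kinds of Treg, where 0.275% of all probes did. Of the 28 member probes, 20 were above background on at least 1 array. The genes that the brightest probe called and that a second probe also called in the same direction were *Bcl2* and *Bcl2l1*. *Mcl1*, *Bak1* and *Bad* have 1 probe each, and for *Bcl2l11*, *Bbc3* and *Bid* no second probe passed. When a gene was read as the mean of its kept probes, the 7 calls in Treg HAR and the 6 in Treg hi cells against naive cells were the same. The log2 differences between Treg HAR and naive cells were then smaller for the genes with several probes, at 0.70 for *Bcl2*, 0.30 for *Bcl2l1*, -0.28 for *Bcl2l11* (limma, adjusted p = 0.0494), 0.18 for *Bbc3* (adjusted p = 0.0483) and -0.41 for *Bid*.

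The isolation of the starting cells was compared within each treatment. None of the 9 members was called between MACS and FACS arrays in naive (1.39% of all genes called), Treg hi (0%) or Treg HAR cells (0%). None was called in the test of whether the difference between MACS and FACS was unlike in Treg HAR and Treg hi cells (0%), or of whether a difference from naive cells was unlike in MACS and FACS arrays (0.543% of all genes called for Treg HAR and 0.562% for Treg hi). Before adjustment 1538 of 15663 genes had a limma p under 0.05 in naive cells, with *Pmaip1* and *Bid* among them. In Treg hi 388 did, in Treg HAR 581, with *Bid* among them, and in the interaction of Treg HAR and Treg hi 775. In the interactions with naive cells 1125 (Treg HAR) and 971 (Treg hi) did. Among these were 3 of the 9 members (*Bak1*, *Pmaip1*, *Bid*) and 1 (*Pmaip1*). *Bak1* and *Pmaip1* lie near background. The largest member differences were in *Bid*, at 0.47 ± 0.18 between naive MACS and FACS cells (limma, adjusted p = 0.405) and -0.43 ± 0.18 between Treg HAR MACS and FACS cells (adjusted p = 0.997), with an interaction of -0.51 ± 0.26 between Treg HAR and Treg hi (adjusted p = 0.915). *Bcl2* had a difference of -0.30 ± 0.18 between naive MACS and FACS cells (adjusted p = 0.674), and *Mcl1* had an interaction of the same kind of 0.47 ± 0.32 (adjusted p = 0.929).

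The signal of the Y-linked gene *Eif2s3y* was above background on 6 of the 12 arrays: the second array of each naive and Treg hi group and both Treg HAR MACS arrays. Isolation and *Eif2s3y* signal therefore coincided within Treg HAR cells, and there the 2 cannot be told apart. Of the 7 members called in Treg HAR against naive cells, 6 were called within the FACS arrays (all but *Bid*), 4 within the MACS arrays (*Bcl2*, *Mcl1*, *Bad* and *Bid*), 5 within the arrays without the signal and 3 within those with it (*Bcl2*, *Mcl1* and *Bad*). In Treg hi cells the 6 calls became 5, 5, 5 and 4 in the same order of subsets. Each subset has 2 arrays a treatment, and calls over all 15663 genes fell in them too. In the same order they were 3515, 2182, 2916 and 2083 for Treg HAR, in place of 4310. For Treg hi they were 3219, 1954, 2586 and 1963, in place of 4075. With the signal as a block over all arrays the 7 calls were the same. *Bcl2*, *Mcl1* and *Bad* in Treg HAR and *Bcl2*, *Bcl2l1* and *Bad* in Treg hi cells were called in all 29 alternative settings.

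**Figure D4:**
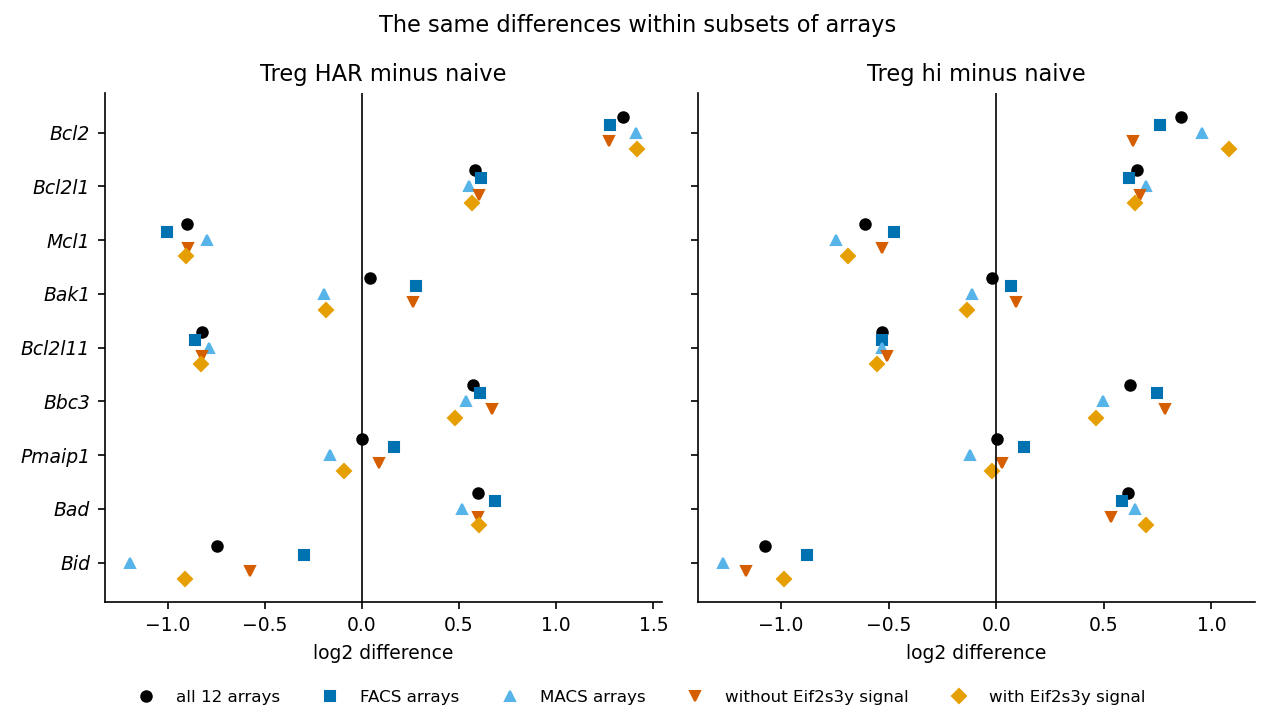
Log2 differences of the 9 genes (x axis) for Treg HAR minus naive (left) and Treg hi minus naive (right) over all 12 arrays and within the FACS arrays, the MACS arrays and the arrays without and with Eif2s3y signal. Signs hold across subsets for the called genes, and Bid in Treg HAR cells moves most, from -0.30 (FACS) to -1.19 (MACS).

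The genes whose profile over the 12 arrays was most like that of each member were found by the root mean square difference of mean-centred log2 values among 10148 genes above background. *Cyp51* (0.156) and *Ddx1* (0.171) were nearest to *Bcl2*, *Dut* (0.104) and *Gatc* (0.109) to *Bcl2l1*, and *Rap1b* (0.115) and *Cutc* (0.138) to *Mcl1*. Among the triggers, *Sh3kbp1* (0.138) and *Hbp1* (0.161) were nearest to *Bcl2l11*, *Saal1* (0.0877) and *Ahi1* (0.102) to *Bbc3*, *Ssr1* (0.0707) and *Mlf1* (0.0831) to *Bad*, and *Tmbim6* (0.183) and *Hmgxb3* (0.185) to *Bid*. *Bak1* (*Bsph1*, 0.0805, and *Gm3336*, 0.0881) and *Pmaip1* (*Fndc3b*, 0.0544, and *Maml3*, 0.056) have flat profiles near background, for which a small difference says little.

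Of 14 further members of the BCL2 family, 12 were tested, and 2 were higher and 2 lower than naive in both kinds of Treg. *Bcl2l2*, which encodes the survival protein BCL-W, was higher by 1.61 ± 0.08 in Treg HAR and 1.80 ± 0.08 in Treg hi cells on the log2 scale (limma, adjusted p = 7.32e-07 and 3.83e-07), more than any of the 9 members. *Bik*, a BH3-only trigger, was higher by 0.80 ± 0.06 and 0.87 ± 0.06. *Bcl2a1b* and *Bcl2a1d*, copies of the A1 survival gene that share most of their sequence and may share signal, were lower, with log2 differences of -1.39 ± 0.09 and -1.32 ± 0.11 in Treg HAR and of -1.12 ± 0.09 and -0.88 ± 0.11 in Treg hi cells. A1 is abundant in neutrophils. The naive MACS arrays exceeded the naive FACS arrays by 0.58 ± 0.13 for *Bcl2a1b* (adjusted p = 0.0861) and 0.54 ± 0.16 for *Bcl2a1d* (adjusted p = 0.2), and neither passed. The Treg HAR calls of both against naive cells held in all 29 alternative settings. The part of neutrophils in these differences was not tested. The 4 called of 12 compare with 27.5% and 26.0% of all genes, and the median log2 difference of the 12 was 0.02 and 0.01, beside -0.01 and 0.00 over all genes.

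Downstream of the mitochondrion, 14 of 18 apoptosome and caspase genes were tested. In Treg HAR against naive cells 7 were higher and 2 lower, and in Treg hi cells 4 and 2, where 27.5% and 26.0% of all genes were called. The 9 in Treg HAR cells became 5 without naive FACS 2. *Birc5*, which encodes survivin, a caspase inhibitor family member that also serves in cell division, was higher by 3.61 ± 0.18 and 3.62 ± 0.18, beside the 7 of 7 cell cycle genes that were higher. *Birc2*, a ubiquitin ligase that restrains death signalling, was lower, at -0.88 ± 0.13 and -0.81 ± 0.13. *Htra2*, a mitochondrial protease, was higher by 0.55 ± 0.09 and 0.66 ± 0.09, and *Apaf1*, the scaffold of the apoptosome, by 0.34 ± 0.10 and 0.59 ± 0.10. *Diablo*, which relieves caspases of their inhibitors, was higher in Treg HAR cells (0.50 ± 0.10) with a difference of 0.57 ± 0.10 from Treg hi cells, and that difference did not pass (adjusted p = 0.055).

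**Figure D5:**
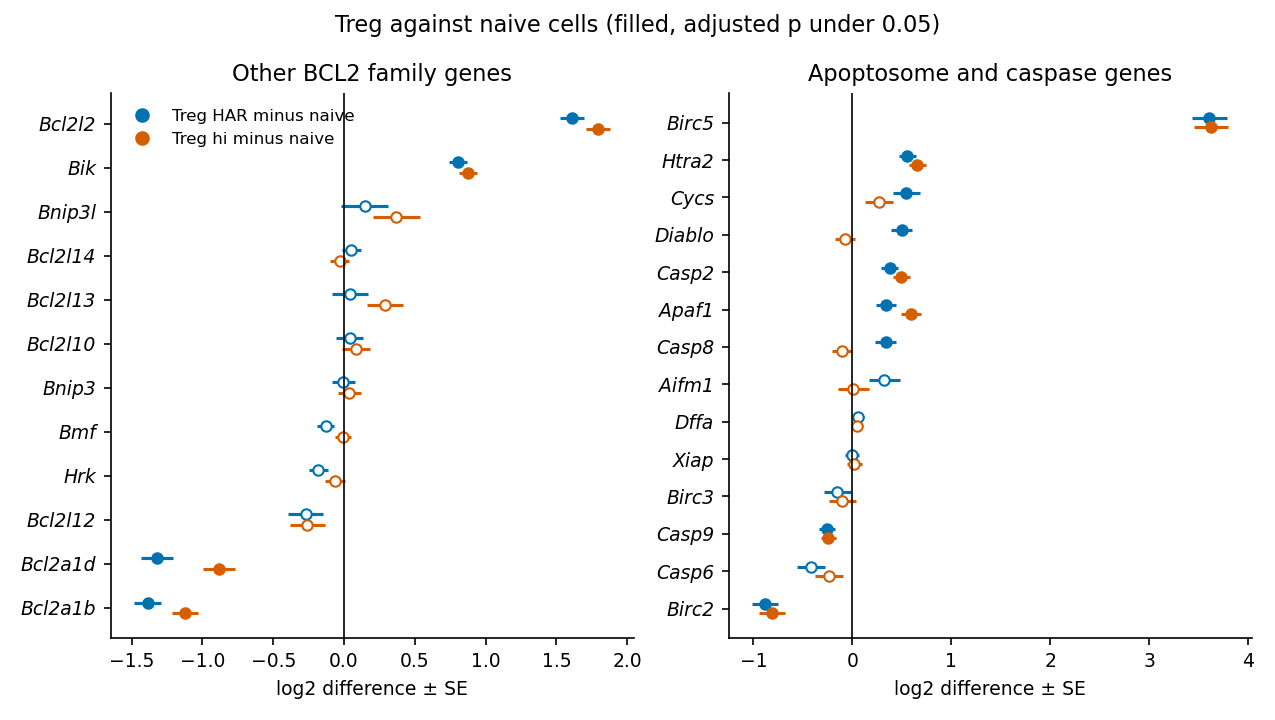
Log2 differences from naive cells ± SE (x axis) for the 12 further BCL2 family genes (left) and the 14 apoptosome and caspase genes (right) that were tested, in Treg HAR and Treg hi cells; filled points have an adjusted p under 0.05. Bcl2l2 (1.61 and 1.80) and Birc5 (3.61 and 3.62) lie furthest to the right in their panels.

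Of 10 death receptor genes 9 were tested. *Fadd*, the adaptor that recruits caspase-8, was higher in Treg HAR than in naive cells (0.56 ± 0.11, limma, adjusted p = 0.00342) and *Fasl*, the ligand of Fas, was lower (-0.79 ± 0.17, adjusted p = 0.00594). These 2 of 9 lie near the 27.5% of all genes called, and became 4 without the second Treg HAR FACS array. In Treg hi cells none of the 9 passed (1 did without any one of 3 arrays: naive MACS 2 or either Treg HAR FACS array), with differences of 0.21 for *Fadd* and -0.40 for *Fasl*. Of 31 regulators of BCL2 family proteins and transcripts 29 were tested, with 7 higher and 3 lower in Treg HAR and 6 higher and 4 lower in Treg hi cells, also close to the 27.5% and 26.0% over all genes. *E2f1*, a cell cycle transcription factor, was higher by 2.20 ± 0.12 in Treg HAR and 1.96 ± 0.12 in Treg hi cells. *Vdac1*, a channel of the outer mitochondrial membrane, was higher by 1.19 ± 0.08 and 1.18 ± 0.08 in the same order. *Foxo1*, a transcription factor that can drive *Bcl2l11* and *Bbc3*, was lower, at -1.79 ± 0.20 in Treg HAR and -1.10 ± 0.20 in Treg hi cells. *Atf4*, of the stress response, was lower, at -1.46 ± 0.25 and -1.62 ± 0.25.

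Of 7 cytokine receptor chains 6 were tested, and 2 were higher and 2 lower in both kinds of Treg. Of all genes 27.5% were called in Treg HAR and 26.0% in Treg hi cells. *Il2ra*, the high-affinity chain for interleukin 2, was below background at its brightest probe in naive cells and at least 12.4-fold higher in Treg HAR and at least 8.43-fold higher in Treg hi cells. *Il7r*, through which interleukin 7 sustains *Bcl2* in resting T cells, was lower, with log2 differences of -2.49 ± 0.17 and -2.365 ± 0.17. *Il6st* was lower, at -1.09 ± 0.15 and -0.77 ± 0.15, and *Il2rb* was higher by 0.48 ± 0.09 and 0.52 ± 0.09. Of 15 p53 targets in apoptosis and arrest, 5 were higher and 1 lower in Treg HAR and 4 and 1 in Treg hi cells. These counts stand beside the same 27.5% and 26.0% of all genes, and they include *Apaf1*, which was also counted above. *Cdkn1a*, the cell cycle inhibitor p21, was higher by 3.25 ± 0.27 in Treg HAR and 2.62 ± 0.27 in Treg hi cells. *Gadd45a*, a stress response gene, was lower, at -2.08 ± 0.06 and -1.96 ± 0.06 in the same order. *Zmat3* and *Ei24* were higher by 0.67 ± 0.08 and 0.61 ± 0.06 in Treg HAR cells. In Treg hi cells they were higher by 0.54 ± 0.08 and 0.44 ± 0.06. None of the genes of these 6 lists passed between Treg HAR and Treg hi cells. In the alternative settings 1 apoptosome or caspase gene passed in 5 of 29, 1 cytokine receptor gene without the second Treg HAR MACS array and 1 p53 target without the second Treg HAR FACS array.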

How the data were processed

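Total RNA of 12 samples was amplified, biotin-labelled and hybridized to Illumina Mouse WG-6 v2 arrays. The authors deposited a non-normalized table of probe intensity values, whose mean was 256.642 on every array, and log2 values processed with lumi. The deposited log2 values served as an alternative. Each array correlated best with its own deposited column (r of at least 0.894). Intensities were background-corrected (normexp, offset 50), quantile-normalized and log2-transformed in R 4.3.3 with limma 3.58.1. Probes above the array's median on at least 2 arrays were kept (32081 of 45281). Of all probes, 34885 map to 1 gene. The brightest kept probe stood for a gene. Background on an array was the density peak plus 3 SDs. A model of 6 group means with lmFit and eBayes was fitted over 15663 genes, and treatment effects were averages over both isolations. P-values were adjusted by Benjamini-Hochberg, errors of differences are SEs, and intervals are 95%. The number of arrays limits the precision. RefSeq tables gave promoters. Alternatives changed the background, normalization, filter, probe rule, model and arrays.

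The members and gene lists were chosen with earlier results of these data known, and support nothing by their choice. All members were named whatever their result. Of each list up to 4 genes past the threshold were eligible to be named by size of difference, with a few others named after their values were seen (*Diablo*, *Foxp3*). The comparison without both naive MACS arrays and the interactions with naive cells were chosen after seeing the data. Of the marker lists, those of other cell types were checked on all arrays. Of 6 CD8 T and NK genes 1 was higher and 1 lower in Treg HAR cells, and 1 was higher and 4 lower in Treg hi cells (5 called, 3 without naive FACS 1, Treg hi FACS 2 or Treg hi MACS 2, and 2 without both naive MACS arrays). Of the monocyte genes 6 and 5 of 7 were lower in Treg HAR and Treg hi cells, of the B cell genes 3 of 6 in both and of the erythroid and platelet genes 4 of 5 in both. Without both naive MACS arrays these became 3, 2 and 3 in both kinds of Treg, and the monocyte count in Treg hi cells was also 3 without any one of 5 arrays (naive FACS 2 or any Treg hi array). Of the T cell genes 4 and 3 of 7 were lower, the 3 in Treg hi cells becoming 0 without naive FACS 1, 1 without Treg hi FACS 2 and 5 without naive MACS 1.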

Additional observations from a re-analysis of the deposited data

Results flagged for a closer look

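In 3 of 60 sets of 4 arrays (each member probe in each treatment, for probes above background on at least 1 array) 1 array lay far from the other 3, and chance gives such a gap in about 1 of 20 sets. *Bcl2* read 7.661 on the second naive MACS array, where the nearest of the other 3 naive arrays read 8.269. *Bad* read 7.7 on the second Treg HAR MACS array, with the nearest Treg HAR array at 7.966. *Bid* read 6.379 on the first Treg hi FACS array, with the nearest Treg hi array at 6.544. All 3 were the lowest of their treatment. No call of *Bcl2*, *Bad* or *Bid* against naive cells was lost when any single array was left out.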

How the results depend on the processing

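Each comparison was repeated in 29 alternative settings. The count of members called between Treg HAR and Treg hi cells was 0 in all 29. Against naive cells it was 6 to 7 in Treg HAR and 5 to 7 in Treg hi cells when single arrays were left out. For Treg HAR it fell to 4 within the MACS arrays and to 3 within the arrays with *Eif2s3y* signal, subsets with 2 arrays a treatment. For Treg hi it fell from 6 to 5 and 4 there. Calls over all genes fell there as well, to 2182 and 2083 for Treg HAR and to 1954 and 1963 for Treg hi. The replicate numbers were not taken to pair the samples: over 15 pairs of groups, deviations correlated from -0.672 to 0.463, and 7 of 15 exceeded 0.1. *Eif2s3y* signal went with the number in the naive and Treg hi groups but not in Treg HAR. With the replicate number as a block 0, 7 and 6 members were called, as without it, and of all genes 39 were called between Treg HAR and Treg hi cells in place of 73. That count of all genes also ran from 0 to 140 over the settings.

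Signs turned for differences that did not pass the test. For Treg HAR minus Treg hi, *Bak1* was -0.0865 within MACS arrays and -0.0491 with *Eif2s3y* signal, *Bbc3* was 0.0391 and 0.0149 there, *Pmaip1* was 0.0321 within FACS arrays and 0.0609 without the signal, and *Bad* was 0.0989 and 0.063 there. When single arrays were left out the ranges were -0.155 to 0.00944 for *Bcl2l1*, -0.0203 to 0.14 for *Bak1*, -0.197 to 0.097 for *Bbc3*, -0.0273 to 0.0188 for *Pmaip1* and -0.0846 to 0.0562 for *Bad*. For Treg HAR minus naive, *Bak1* was -0.197 within MACS arrays and -0.183 with the signal (single arrays left out, -0.0404 to 0.12). *Pmaip1* was 0.00372 with offset 16, 0.0168 on a common median, 0.163 within FACS arrays, 0.0892 without the signal and 0.104 without both naive MACS arrays (-0.0254 to 0.0247). For Treg hi minus naive, *Bak1* was 0.00646 on a common median, 0.0704 within FACS arrays, 0.0938 without the signal and 0.0801 without both naive MACS arrays (-0.0813 to 0.0411). *Pmaip1* was -2.11e-06 in the deposited values, -0.123 within MACS arrays and -0.0206 with the signal (-0.0212 to 0.0289). Of the other genes, *Cd8b1* turned from 0.99 to -0.45 (Treg HAR minus naive) with the mean of its kept probes. The cause was not tested.

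For probes near background (*Bak1*, *Pmaip1*, *Bcl2l1* in naive cells) the offset narrows the differences, so a small value does not bound the change in the transcript.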
